A study of Homo sapiens with 10 samples.

Results

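U937 cells cross-linked through CD32 for 2 h were compared with control U937 cells on 4 of the 10 arrays of the series. The members were picked by title: the array CD32-2h with its duplicate, against Control-1 and Control-2. All 10 arrays carried RNA of U937, an established monocytic cell line of human origin. Every group, control included, had been treated with interferon gamma to differentiate the cells. No cross-linking was listed for the control, and no time was given for it. The other 6 arrays, in pairs, held cells cross-linked through CD64 for 2 h, through CD32 for 6 h and through CD64 for 6 h.

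CD32 is the low-affinity receptor for the constant part of IgG on monocytes, macrophages and neutrophils, where it takes up immune complexes. One form of it, FCGR2A, carries an activating tyrosine motif in its own tail. Another form, FCGR2B, carries an inhibitory one. Clustering of the activating form by cross-linking brings in Src family kinases and SYK, followed by calcium release, MAP kinase signalling and the transcription of early response and cytokine genes. CD64, the high-affinity receptor FCGR1A, signals through the separate Fc receptor gamma chain.

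The deposited values were signal intensities, 1 for each probe set and array, on a linear scale. Values under a floor of 37.5, the 25th percentile of all values, were raised to it before log2 was taken. Each member below is given by its signal on CD32 2 h array 1 and array 2, then on control array 1 and array 2. A gene is said to have risen or fallen where limma gave an adjusted p under 0.05 over 7708 probe sets tested. The error after ± is the standard error of the log2 difference, CD32 2 h minus control, with n = 2 arrays in each group. Where the mean of a group lay at or under the floor, the change is given as "at least". The labels did not say whether a duplicate came from a separate culture, so each p measures the spread between these arrays, which may be technical. One CD32 2 h array had the source name "CD332", and its title and description, which read CD32, were followed. In bulk RNA, fewer cells of a kind and less RNA per cell cannot be told apart.

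The 4 arrays were alike in scale and in cell type. Their median signals were 119 to 136 in CD32 2 h cells and 112 to 152 in control cells. Of 15 markers of monocytic cells, 11 were on the array, all passed the floor on at least 2 of the 10 arrays, and none was called. The integrin ITGB2 gave the highest signal among them, whereas CD14 read 14.5 and 3.6 on the CD32 2 h arrays, against 9.4 and 4.1 on the control arrays. The summed signals of 5 lists of other lineages held no called gene and lay between 188 and 714 in CD32 2 h cells and between 178 and 709 in control cells. The sums of the 11 monocytic markers were 15887 and 14603 in CD32 2 h cells, against 14164 and 15207 in control cells. Added bacterial and phage transcripts read a mean log2 signal of 11.25 in CD32 2 h cells and 10.63 in control cells. The part of this difference in the results was not tested.

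At 2 h after CD32 cross-linking 1192 of the 7708 probe sets were called, 15.5% of those tested. Of these, 683 rose (8.86%) and 509 fell (6.6%). A change over 2-fold was called for 421 probe sets (5.46%), 275 higher (3.57%) and 146 lower (1.89%). Both CD32 2 h arrays lay above both control arrays in 24.3% of the probe sets and below both in 25.9%, so that arrays that do not overlap are common here. Called genes were picked for naming among those without overlap between the groups, apart from the first 3 of each list, so the lack of overlap in a named gene describes it and adds no support. The median log2 difference over all probe sets tested was -0.031. The comparison was refitted without CD32 2 h array 1, CD32 2 h array 2, control array 1 and control array 2 in turn. Each such fit left 1 array in a group and made fewer calls, whichever array was left out. A lost call can thus reflect the smaller group and does not single out an array. None of the original calls changed sign in these fits. Counts of list genes without 1 array are given below in that order, and counts of 1 to 3 genes of a list often changed in these fits.

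**Figure D1:**
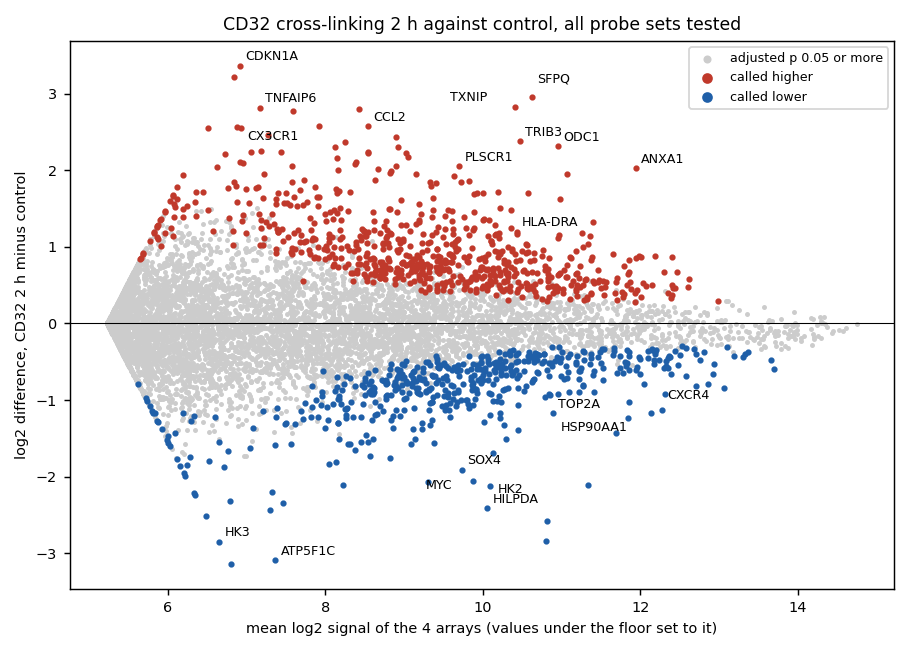
Log2 difference between CD32 2 h and control (vertical axis) against the mean log2 signal of the 4 arrays (horizontal axis) for the 7708 probe sets tested. Red points are the 683 called higher, blue points the 509 called lower and grey points the rest, with CDKN1A at the top left and HK3 and ATP5F1C among the lowest.

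The largest rises included CDKN1A, SFPQ, TXNIP, CX3CR1 and CCL2. CDKN1A, which encodes the cyclin-dependent kinase inhibitor p21, read 323 and 461 on the CD32 2 h arrays, against 37.0 and 16.5 on the control arrays (at least 10.3-fold higher, adjusted p = 1.99e-05). SFPQ, an RNA-binding protein of paraspeckles and splicing, read 4456 and 4318 on the CD32 2 h arrays, against 593 and 536 on the control arrays (log2 difference 2.96 ± 0.09, adjusted p = 2.22e-08). TXNIP, which binds thioredoxin and lowers glucose uptake, read 3708 and 3555 on the CD32 2 h arrays, against 537 and 487 on the control arrays (log2 difference 2.83 ± 0.09, adjusted p = 4.57e-08). In these 3 genes both CD32 2 h arrays stood far above both control arrays. CX3CR1, the receptor for the chemokine fractalkine, read 642 and 545 on the CD32 2 h arrays, against 98.1 and 100 on the control arrays (log2 difference 2.58 ± 0.25, adjusted p = 5.53e-05). CCL2, the chemokine that draws monocytes, read 936 and 877 on the CD32 2 h arrays, against 148 and 156 on the control arrays (log2 difference 2.58 ± 0.15, adjusted p = 3.71e-06). TNFAIP6, a secreted hyaluronan-binding protein, read 351 and 413 on the CD32 2 h arrays, against 78.1 and 6.5 on the control arrays (log2 difference 2.82 ± 0.34, adjusted p = 0.000293). Its control arrays lay far apart and 1 of them was under the floor, so the size of its rise depends on the floor. RAPGEF2, an exchange factor for the GTPase RAP1, read 535 and 477 on the CD32 2 h arrays, against 76.1 and 71.8 on the control arrays (log2 difference 2.77 ± 0.23, adjusted p = 2.24e-05).

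The largest falls included HK3, HK2, HILPDA and MYC. HK3, a hexokinase of myeloid cells, read 22.6 and 30.5 on the CD32 2 h arrays, against 366 and 198 on the control arrays (at least 7.18-fold lower, adjusted p = 0.00324). HK2, a second hexokinase, read 509.7 and 540.0 on the CD32 2 h arrays, against 2489 and 2081 on the control arrays (log2 difference -2.12 ± 0.16, adjusted p = 1.32e-05). HILPDA, a lipid droplet protein inducible by hypoxia, read 412 and 515 on the CD32 2 h arrays, against 2619 and 2282 on the control arrays (log2 difference -2.41 ± 0.16, adjusted p = 4.84e-06). Both CD32 2 h arrays lay far below both control arrays in all 3 genes. MYC, the growth-promoting transcription factor, read 411 and 516 on the CD32 2 h arrays, against 1788 and 2059 on the control arrays (log2 difference -2.06 ± 0.14, adjusted p = 6.78e-06). FUT4, a fucosyltransferase that makes the CD15 antigen, read 276 and 346 on the CD32 2 h arrays, against 1126 and 1489 on the control arrays (log2 difference -2.06 ± 0.2, adjusted p = 5.53e-05). ATP5F1C, the gamma subunit of ATP synthase, read 50.2 and 63.4 on the CD32 2 h arrays, against 475 and 485 on the control arrays (log2 difference -3.09 ± 0.41, adjusted p = 0.000534). PIDD1, a death domain protein induced by p53, read 18.3 and 29.2 on the CD32 2 h arrays, against 362 and 299 on the control arrays (at least 8.77-fold lower, adjusted p = 0.0129), but its call was lost without any 1 array: its adjusted p was 0.0822 without CD32 2 h array 1, 0.073 without CD32 2 h array 2, 0.0765 without control array 1 and 0.0613 without control array 2.

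**Figure D2:**
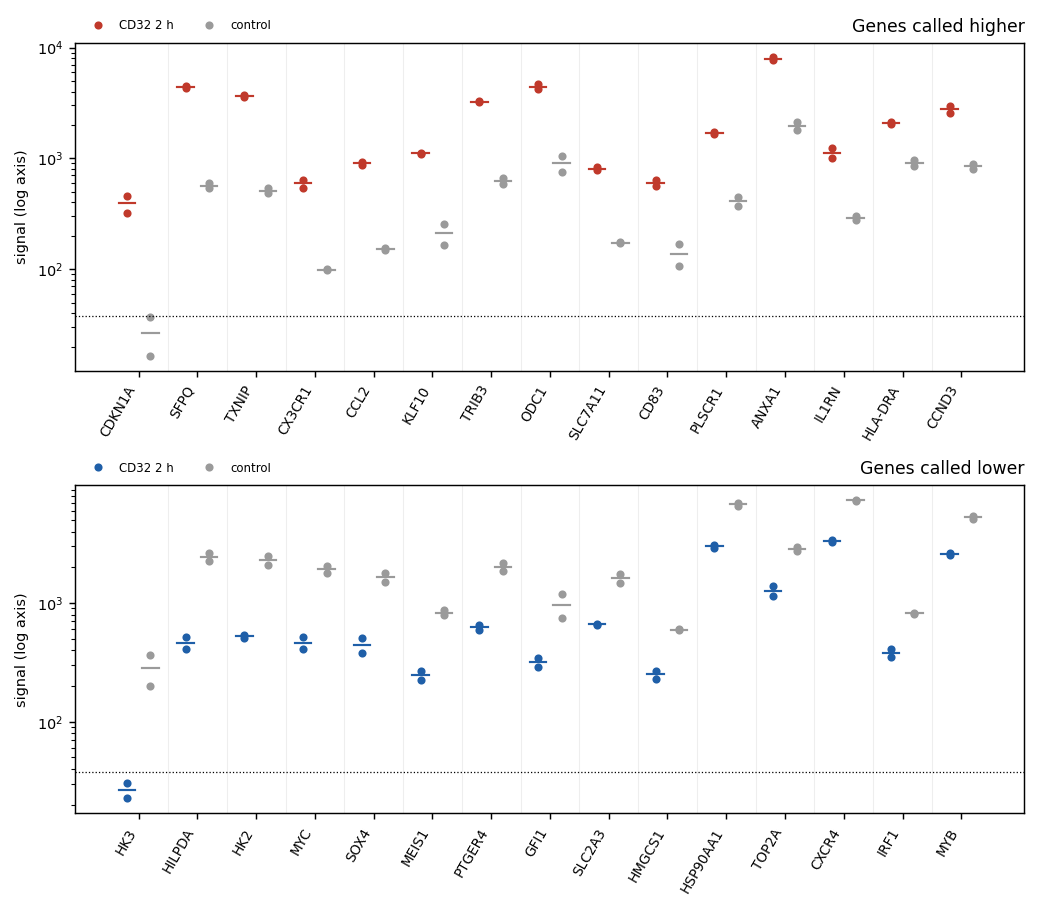
Signal on each array (log axis) for 15 genes that rose (top) and 15 that fell (bottom), CD32 2 h left of control for each gene, with points for arrays, bars for means and the floor dotted. The 2 arrays of each group stay apart from those of the other group in every gene, as the choice of the genes requires, from CDKN1A, whose control arrays are under the floor, to HK3, whose CD32 2 h arrays are.

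The activating CD32 gene itself was not called. Of 7 Fc receptor and signalling chain genes tested, 2 rose, none fell, and the median log2 difference was 0.21. FCGR2A, the activating CD32, read 609 and 706 on the CD32 2 h arrays, against 652 and 682 on the control arrays (log2 difference -0.02 ± 0.13, adjusted p = 0.955) and did not pass the test. FCGR2B, the inhibitory CD32, read 664 and 651 on the CD32 2 h arrays, against 411 and 438 on the control arrays (log2 difference 0.63 ± 0.12, adjusted p = 0.0059). The FCGR2 genes are near-identical copies, so a probe set of one may also bind the other and this rise is uncertain in origin. FCAR, the receptor for IgA, read 423 and 306 on the CD32 2 h arrays, against 169 and 113 on the control arrays (log2 difference 1.38 ± 0.25, adjusted p = 0.00372). FCER1G, the shared gamma chain, read 3593 and 3396 on the CD32 2 h arrays, against 3008 and 3204 on the control arrays (log2 difference 0.17 ± 0.09, adjusted p = 0.257) and did not pass. Of the 44 kinases, phosphatases and adaptors below these receptors, 6 rose and 3 fell, a share of 20.5% called, and 4, 3, 3 and 5 rose without 1 array. One of the fallen genes, PDK1, encodes pyruvate dehydrogenase kinase, a mitochondrial enzyme that does not act below these receptors. GAB2, a docking adaptor for PI3 kinase, read 319 and 255 on the CD32 2 h arrays, against 610.2 and 589 on the control arrays (log2 difference -1.07 ± 0.21, adjusted p = 0.0058), with an adjusted p of 0.0567 without CD32 2 h array 2.

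Early response transcription factors were more often higher than lower. Of 31 tested, 13 rose and 4 fell, with a median log2 difference of 0.61, but the number that rose was 7, 6, 9 and 8 without 1 array. KLF10, a repressor induced by TGF beta and by glucose, read 1104 and 1112 on the CD32 2 h arrays, against 256 and 164 on the control arrays (log2 difference 2.44 ± 0.2, adjusted p = 1.82e-05). ATF3, a stress-induced repressor of inflammatory genes, read 511 and 321 on the CD32 2 h arrays, against 133 and 92.6 on the control arrays (log2 difference 1.87 ± 0.27, adjusted p = 0.00105). SGK1, a kinase gene counted among early response genes, read 778 and 734 on the CD32 2 h arrays, against 199 and 216 on the control arrays (log2 difference 1.87 ± 0.13, adjusted p = 7.7e-06). IER3, an early gene that limits cell death, read 523 and 498 on the CD32 2 h arrays, against 179 and 138 on the control arrays (log2 difference 1.7 ± 0.16, adjusted p = 5.48e-05). ID2, which blocks basic helix-loop-helix factors, rose by a log2 difference of 1.14. These 5 genes rose in all 4 fits without 1 array. EGR1 and FOSB, classic targets of the serum response, were less firm. EGR1 read 153 and 136 on the CD32 2 h arrays, against 62.4 and 63.4 on the control arrays (log2 difference 1.2 ± 0.31, adjusted p = 0.0257), with adjusted p of 0.132 without CD32 2 h array 1, 0.0802 without CD32 2 h array 2, 0.0687 without control array 1 and 0.0666 without control array 2. FOSB read 93.8 and 77.2 on the CD32 2 h arrays, against 15.0 and 5.3 on the control arrays (at least 2.27-fold higher, adjusted p = 0.0451), with adjusted p of 0.191 without CD32 2 h array 1, 0.104 without CD32 2 h array 2, 0.101 without control array 1 and 0.0944 without control array 2. KLF6 fell, with 198 and 166 on the CD32 2 h arrays, against 576 and 504 on the control arrays (log2 difference -1.57 ± 0.29, adjusted p = 0.00443). ZFP36L2, which speeds decay of AU-rich messages, also fell, with 3813 and 3610.3 on the CD32 2 h arrays, against 6881 and 7139 on the control arrays (log2 difference -0.92 ± 0.08, adjusted p = 3.38e-05).

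Phosphatases of MAP kinases rose in part. Of 15 genes of the list of MAP kinase phosphatases and Sprouty genes, 7 rose and 2 fell, with a median log2 difference of 0.55. The risen ones include DUSP11, which acts on RNA. DUSP5, a nuclear phosphatase of ERK, read 882 and 1075 on the CD32 2 h arrays, against 296 and 186 on the control arrays (log2 difference 2.05 ± 0.21, adjusted p = 9.41e-05). DUSP6, its cytoplasmic counterpart, read 421 and 421 on the CD32 2 h arrays, against 206 and 118 on the control arrays (log2 difference 1.43 ± 0.25, adjusted p = 0.00276). PTPN7, the haematopoietic phosphatase of MAP kinases, read 1593 and 1853 on the CD32 2 h arrays, against 642 and 709 on the control arrays (log2 difference 1.35 ± 0.15, adjusted p = 0.000139). DUSP14 also rose, by a log2 difference of 1.22. DUSP3, which acts on ERK and JNK, went the other way, with 404 and 459 on the CD32 2 h arrays, against 842 and 1047 on the control arrays (log2 difference -1.12 ± 0.17, adjusted p = 0.0014). DUSP1, induced early in many cells, read 166 and 147 on the CD32 2 h arrays, against 354 and 312 on the control arrays (log2 difference -1.09 ± 0.27, adjusted p = 0.0194), and that fall had an adjusted p of 0.067 without CD32 2 h array 1, 0.102 without CD32 2 h array 2 and 0.0862 without control array 1.

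The NF-kappaB list moved in both directions. Of 26 subunits, inhibitors and feedback targets 7 rose and 3 fell, with a median of 0.38, and the number that rose was 5, 4, 7 and 6 without 1 array. CD83, a marker of mature dendritic cells and an NF-kappaB target, read 564 and 632 on the CD32 2 h arrays, against 168 and 107 on the control arrays (log2 difference 2.16 ± 0.22, adjusted p = 8.54e-05). BIRC2, the ubiquitin ligase cIAP1, read 1145 and 939 on the CD32 2 h arrays, against 531 and 576 on the control arrays (log2 difference 0.91 ± 0.12, adjusted p = 0.000562). NFKBIA, the inhibitor that NF-kappaB induces against itself, read 980.3 and 954 on the CD32 2 h arrays, against 645 and 540.5 on the control arrays (log2 difference 0.71 ± 0.14, adjusted p = 0.00498). BCL2A1, an anti-apoptotic target of the same factor, fell, with 1421 and 1264 on the CD32 2 h arrays, against 2389.7 and 2669 on the control arrays (log2 difference -0.91 ± 0.11, adjusted p = 0.000355). TNFAIP8 fell as well, by a log2 difference of -0.82. NFKB1, which encodes the p105 precursor of p50, read 615 and 701 on the CD32 2 h arrays, against 517 and 495 on the control arrays (log2 difference 0.38 ± 0.13, adjusted p = 0.0871) and did not pass the test. TNFAIP3, the ubiquitin editor A20 that ends NF-kappaB signalling, read 1183 and 1249 on the CD32 2 h arrays, against 1606 and 1362 on the control arrays (log2 difference -0.28 ± 0.11, adjusted p = 0.12) and did not pass either.

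Cytokine genes moved in both directions. Of 41 cytokines and chemokines tested, 6 rose and 4 fell, a share of 24.4% called against 15.5% of all probe sets, and the median was 0.05. Besides CCL2 the firm rises were IL1RN, TNFSF10 and CXCL9. IL1RN, the natural antagonist of the interleukin-1 receptor, read 1238 and 1007 on the CD32 2 h arrays, against 302 and 277 on the control arrays (log2 difference 1.95 ± 0.15, adjusted p = 1.57e-05). TNFSF10, the death ligand TRAIL, read 805 and 793 on the CD32 2 h arrays, against 278 and 307 on the control arrays (log2 difference 1.45 ± 0.12, adjusted p = 1.99e-05). CXCL9, a T cell chemokine induced by interferon gamma, read 6467 and 6225 on the CD32 2 h arrays, against 4093 and 3896 on the control arrays (log2 difference 0.67 ± 0.09, adjusted p = 0.000558). CXCL8, the neutrophil chemokine, read 247 and 262 on the CD32 2 h arrays, against 198 and 151 on the control arrays (log2 difference 0.56 ± 0.14, adjusted p = 0.0255), a rise with adjusted p of 0.0805 without CD32 2 h array 1, 0.122 without CD32 2 h array 2 and 0.104 without control array 2. IL1B, the pro-inflammatory counterpart of IL1RN, read 424 and 416 on the CD32 2 h arrays, against 532 and 687 on the control arrays (log2 difference -0.52 ± 0.15, adjusted p = 0.041), a fall with adjusted p of 0.137 without CD32 2 h array 1, 0.153 without CD32 2 h array 2 and 0.184 without control array 2. The number of list members that fell was 1, 0, 2 and 1 without 1 array.

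Receptors for chemoattractants moved in both directions. Of 21 tested, 5 rose and 2 fell, with a median of 0.28. C5AR1, the receptor for the complement fragment C5a, read 289.5 and 349 on the CD32 2 h arrays, against 63.7 and 70.3 on the control arrays (log2 difference 2.25 ± 0.29, adjusted p = 0.000507). C3AR1, the receptor for C3a, read 690.3 and 885 on the CD32 2 h arrays, against 293 and 349 on the control arrays (log2 difference 1.29 ± 0.17, adjusted p = 0.000553). CXCR4, which holds immature myeloid cells in the bone marrow, read 3427 and 3287 on the CD32 2 h arrays, against 7377 and 7252 on the control arrays (log2 difference -1.12 ± 0.1, adjusted p = 2.62e-05). C5AR1 and C3AR1 were high and CXCR4 was low on both CD32 2 h arrays. Of 19 complement genes 3 rose and 2 fell, a share of 26.3% called against 15.5% of all probe sets. The number that fell varied in the fits without 1 array. CD55, a shield against complement, rose with 1009 and 792 on the CD32 2 h arrays, against 182 and 289 on the control arrays (log2 difference 1.96 ± 0.21, adjusted p = 0.00011). ANXA1, a lipid-binding mediator that resolves inflammation, rose with 8129 and 7739 on the CD32 2 h arrays, against 2117 and 1788 on the control arrays (log2 difference 2.03 ± 0.11, adjusted p = 1.94e-06). Of 19 genes of prostaglandins, leukotrienes and other lipid mediators 1 rose and 1 fell, a share of 10.5% called, which is below the share of all probe sets. PTGER4, a receptor for prostaglandin E2, fell with 656 and 596 on the CD32 2 h arrays, against 1870.3 and 2186 on the control arrays (log2 difference -1.69 ± 0.16, adjusted p = 5.53e-05). ALOX5AP, needed for leukotriene synthesis, rose with 4816 and 4357 on the CD32 2 h arrays, against 2948 and 2929.6 on the control arrays (log2 difference 0.64 ± 0.12, adjusted p = 0.00385).

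Surface molecules of antigen-presenting cells rose in part. Of 20 costimulatory and related markers 5 rose and 1 fell, and 3, 4, 5 and 4 rose without 1 array. CD58, the ligand of T cell CD2, read 433 and 432 on the CD32 2 h arrays, against 134 and 119.6 on the control arrays (log2 difference 1.78 ± 0.16, adjusted p = 4.37e-05). TNFSF4, the ligand of OX40, read 486 and 555 on the CD32 2 h arrays, against 189 and 124 on the control arrays (log2 difference 1.76 ± 0.24, adjusted p = 0.000609). Of 19 genes of TREM1 and paired myeloid receptors 3 rose and 1 fell, a share of 21.1% called against 15.5% of all probe sets. The number that rose varied in the fits without 1 array. TREM1, an amplifying receptor of monocytes, read 252 and 342 on the CD32 2 h arrays, against 67.2 and 27.2 on the control arrays (log2 difference 2.55 ± 0.49, adjusted p = 0.00551), with adjusted p of 0.0573 without CD32 2 h array 2. Of 19 Toll-like receptors and adaptors 3 rose and 0 fell, a share of 15.8% called, near the 15.5% of all probe sets. TLR4, the receptor for endotoxin, read 389 and 347 on the CD32 2 h arrays, against 175 and 189 on the control arrays (log2 difference 1.01 ± 0.19, adjusted p = 0.00466). MYD88, its adaptor, read 2453 and 2219 on the CD32 2 h arrays, against 1325 and 1221 on the control arrays (log2 difference 0.88 ± 0.15, adjusted p = 0.00232). CYBB, the catalytic subunit of the phagocyte oxidase, read 1035 and 1054 on the CD32 2 h arrays, against 596 and 526 on the control arrays (log2 difference 0.9 ± 0.16, adjusted p = 0.00292). Of 19 integrin and adhesion genes 4 rose and 0 fell, a share of 21.1% called, and the number that rose varied without 1 array. The adhesion molecule PECAM1 rose by a log2 difference of 0.83. Among markers of macrophage differentiation 13.3% were called, below the 15.5% of all probe sets. Of 30 markers of macrophage differentiation 4 rose and none fell, and that count was 3, 2, 3 and 1 without 1 array. Without control array 2 another 2 of them were called lower.

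Interferon-stimulated genes rose in part, in cells that had all received interferon gamma. Of 55 tested, 19 rose and 3 fell, with a median of 0.27. The number that rose was 11, 15, 16 and 14 without 1 array. PLSCR1, a membrane and nuclear protein with antiviral action, read 1647 and 1734 on the CD32 2 h arrays, against 372 and 447 on the control arrays (log2 difference 2.05 ± 0.11, adjusted p = 1.94e-06). ISG15, a ubiquitin-like modifier, read 1937 and 2326 on the CD32 2 h arrays, against 521 and 806 on the control arrays (log2 difference 1.71 ± 0.19, adjusted p = 0.000153). OAS2, an enzyme that activates RNase L, read 346 and 376 on the CD32 2 h arrays, against 132 and 114 on the control arrays (log2 difference 1.55 ± 0.25, adjusted p = 0.00177). IFIT5, which binds foreign RNA ends, read 171 and 120.1 on the CD32 2 h arrays, against 16.6 and 35.2 on the control arrays (at least 3.82-fold higher, adjusted p = 0.011), with an adjusted p of 0.0971 without CD32 2 h array 1. The fallen genes were IRF1, IRF8 and GBP1, all known as early targets of interferon gamma. IRF1 read 410.3 and 354 on the CD32 2 h arrays, against 826 and 815 on the control arrays (log2 difference -1.11 ± 0.16, adjusted p = 0.000909). IRF8, a factor of monocyte development, read 712 and 562 on the CD32 2 h arrays, against 1275 and 1252 on the control arrays (log2 difference -1.0 ± 0.17, adjusted p = 0.00245). GBP1, a guanylate-binding protein, read 365 and 236 on the CD32 2 h arrays, against 835 and 593 on the control arrays (log2 difference -1.26 ± 0.29, adjusted p = 0.0146), with adjusted p of 0.133 without CD32 2 h array 2 and 0.119 without control array 1.

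The promoters of the interferon group are shown because the letters of the interferon-stimulated response element were frequent in them. The searched core was GAAA, any 2 bases, then GAAA again, on both strands, in RefSeq promoter windows from 250 bases before to 50 bases after each gene's start. It was in 15 of the 16 risen genes that had a window, in 1 of the 3 fallen ones, and in 9 of 22 list members that were not called. Of all 27305 promoters 3.65% held it, and of those of tested genes 3.41%. The 200 bases before the start are printed 5′ to 3′ on the gene's strand, from GRCh38.p14, with matches on either strand in capitals, for ISG15 (chr1:1013297-1013496, plus strand), IFIT3 (chr10:89327797-89327996, plus strand), PLSCR1 (chr3:146544608-146544807, minus strand) and IFI44L (chr1:78620248-78620447, plus strand). IFIT3 and IFI44L were chosen after their values were seen. IFIT3 read 519.6 and 421 on the CD32 2 h arrays, against 161 and 184 on the control arrays (log2 difference 1.44 ± 0.21, adjusted p = 0.00118), and IFI44L read 166 and 79.3 on the CD32 2 h arrays, against 42.8 and 4.3 on the control arrays (at least 2.87-fold higher, adjusted p = 0.0363), with adjusted p of 0.256 without CD32 2 h array 1, 0.0845 without control array 1 and 0.117 without control array 2.

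ISG15: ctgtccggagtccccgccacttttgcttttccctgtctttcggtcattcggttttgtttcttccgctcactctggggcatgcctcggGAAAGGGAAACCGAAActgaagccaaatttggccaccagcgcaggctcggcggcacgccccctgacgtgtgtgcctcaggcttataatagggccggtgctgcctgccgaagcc
IFIT3: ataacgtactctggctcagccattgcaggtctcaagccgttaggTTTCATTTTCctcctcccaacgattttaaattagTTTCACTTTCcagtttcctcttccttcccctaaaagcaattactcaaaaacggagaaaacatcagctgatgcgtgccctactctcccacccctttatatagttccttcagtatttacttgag
PLSCR1: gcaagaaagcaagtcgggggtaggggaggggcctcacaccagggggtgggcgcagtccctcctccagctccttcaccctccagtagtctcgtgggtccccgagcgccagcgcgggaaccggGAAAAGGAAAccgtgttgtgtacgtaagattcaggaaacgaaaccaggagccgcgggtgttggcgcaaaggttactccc
IFI44L: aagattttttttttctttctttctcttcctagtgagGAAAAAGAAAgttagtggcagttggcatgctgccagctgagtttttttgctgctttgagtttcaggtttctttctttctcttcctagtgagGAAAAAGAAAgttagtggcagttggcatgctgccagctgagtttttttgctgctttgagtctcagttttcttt

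In the ISG15 window the matches start at bases -113 and -107 from the gene's start and overlap, and the capitals run over both. In PLSCR1 the single match starts at base -79, in IFIT3 they start at -156 and -122, and in IFI44L at -164 and -73. A match is a run of letters, and binding was not measured. The E-box CACGTG, hypoxia core ACGTG and sterol core TCACCCCAC were searched too, and were in 9.31%, 24.3% and 0.325% of promoters of tested genes. Among fallen genes with a window, the E-box was in 1 of 4 of the MYC list and the sterol core in 0 of 7 of the cholesterol list. The hypoxia core was in 4 of 5 fallen hypoxia-inducible genes and in 2 of 7 fallen glycolytic genes.

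**Figure D3:**
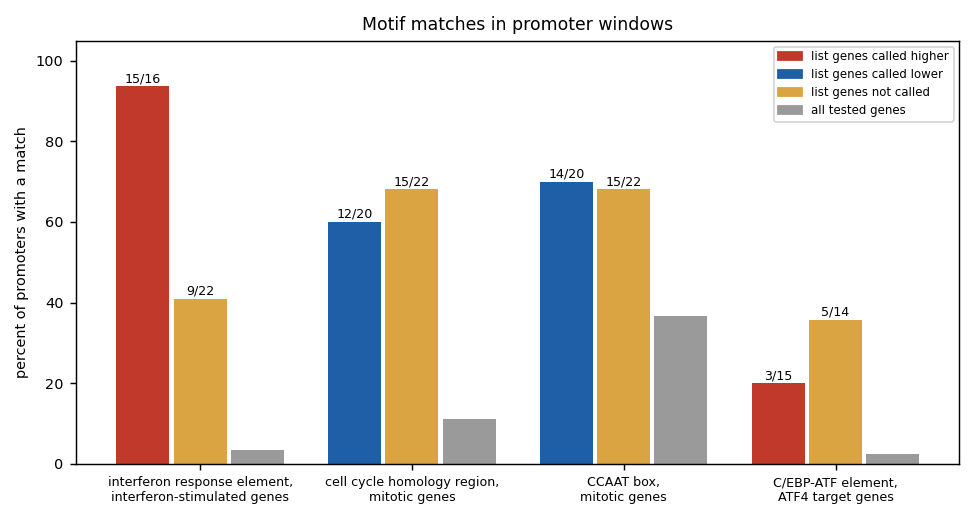
Percent of promoter windows (vertical axis) that hold a motif, for list genes called higher (red) or lower (blue), list genes not called (yellow) and all tested genes (grey). The interferon response element core is in 15 of 16 risen and 9 of 22 uncalled interferon-stimulated genes, and the cell cycle homology core is in 12 of 20 fallen and 15 of 22 uncalled mitotic genes.

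Genes of MHC class II presentation rose in part, and none of class I was called. Of 14 class II genes tested, 5 rose and none fell, with a median of 0.24. HLA-DRA, the alpha chain of HLA-DR, read 2144 and 2035 on the CD32 2 h arrays, against 857 and 967 on the control arrays (log2 difference 1.2 ± 0.11, adjusted p = 5.46e-05). HLA-DRB1, its partner, read 2971 and 2998 on the CD32 2 h arrays, against 1598 and 1708 on the control arrays (log2 difference 0.85 ± 0.1, adjusted p = 0.000186). HLA-DRB genes are near-identical copies, so that value may hold signal of others. CD74, the invariant chain that guards the peptide groove, read 2608 and 2716 on the CD32 2 h arrays, against 1456 and 1864 on the control arrays (log2 difference 0.69 ± 0.12, adjusted p = 0.00338). CTSS, the protease that removes it, read 1426 and 1403 on the CD32 2 h arrays, against 869 and 895 on the control arrays (log2 difference 0.68 ± 0.13, adjusted p = 0.00472). CIITA, the master activator of class II genes, read 87.0 and 136 on the CD32 2 h arrays, against 140.3 and 76.8 on the control arrays (log2 difference 0.07 ± 0.53, adjusted p = 0.972) and was not called. Of 15 class I genes tested by limma 0 were called. At an unadjusted p under 0.05 there was 1 higher and 1 lower, against 14% and 12.6% of all probe sets. Among cytokine receptors and their signalling genes 7 of 42 rose and 1 fell, a share of 19.0% called against 15.5% of all probe sets. They included STAT3, with 1582 and 1782 on the CD32 2 h arrays, against 908 and 839 on the control arrays (log2 difference 0.94 ± 0.11, adjusted p = 0.000291), and the interferon gamma receptor chain IFNGR1, with 1499 and 1659.6 on the CD32 2 h arrays, against 879 and 852 on the control arrays (log2 difference 0.87 ± 0.12, adjusted p = 0.000887). IL10RA and IL4R, receptors for interleukins 10 and 4, rose by log2 differences of 1.01 and 1.0.

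Many targets of ATF4, the factor that answers amino acid shortage, rose. Of 36 tested, 16 rose and 0 fell, with a median of 0.27, and 12, 12, 12 and 13 rose without 1 array. TRIB3, a pseudokinase that feeds back on ATF4, read 3259 and 3225 on the CD32 2 h arrays, against 589 and 658 on the control arrays (log2 difference 2.38 ± 0.11, adjusted p = 7.81e-07). SLC7A11, the cystine importer, read 785 and 831 on the CD32 2 h arrays, against 174 and 171 on the control arrays (log2 difference 2.23 ± 0.14, adjusted p = 4.18e-06). SLC38A2, a carrier of small neutral amino acids, read 4081 and 4345 on the CD32 2 h arrays, against 1126 and 1049.8 on the control arrays (log2 difference 1.95 ± 0.1, adjusted p = 8.68e-07). CEBPG, a partner of ATF4 on DNA, read 974 and 1083 on the CD32 2 h arrays, against 430.4 and 464 on the control arrays (log2 difference 1.2 ± 0.13, adjusted p = 0.000145). In all 4 genes the groups were far apart. ATF4 itself read 5185 and 4841 on the CD32 2 h arrays, against 2942 and 4128 on the control arrays (log2 difference 0.52 ± 0.13, adjusted p = 0.0229), with an adjusted p of 0.146 without CD32 2 h array 1, 0.0766 without CD32 2 h array 2 and 0.107 without control array 1. UPP1, which salvages uridine and is outside the list, read 809 and 589.9 on the CD32 2 h arrays, against 108 and 165 on the control arrays (log2 difference 2.37 ± 0.24, adjusted p = 9.44e-05).

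Genes of the unfolded protein response in the endoplasmic reticulum rose in part. Of 26 tested, 6 rose and 1 fell, with a median of 0.18, and 3, 3, 5 and 4 rose without 1 array. DNAJB9, a co-chaperone induced by XBP1, read 1547 and 1559 on the CD32 2 h arrays, against 369 and 450.0 on the control arrays (log2 difference 1.93 ± 0.12, adjusted p = 4.84e-06). XBP1, the spliced factor of that response, read 1697 and 1724 on the CD32 2 h arrays, against 881 and 664 on the control arrays (log2 difference 1.16 ± 0.14, adjusted p = 0.000253). P4HB, a disulfide isomerase, fell with 4153 and 4321 on the CD32 2 h arrays, against 6731 and 5790.4 on the control arrays (log2 difference -0.56 ± 0.1, adjusted p = 0.00344). Heat shock genes outside that compartment moved in both directions, with 3 of 31 higher and 6 lower. HSP90AA1, the inducible cytosolic HSP90, read 2934 and 3069.7 on the CD32 2 h arrays, against 6579 and 6956 on the control arrays (log2 difference -1.17 ± 0.09, adjusted p = 9.75e-06). HSPA6, a strictly inducible HSP70, read 160.4 and 220.4 on the CD32 2 h arrays, against 557 and 624 on the control arrays (log2 difference -1.65 ± 0.27, adjusted p = 0.00223). DNAJA1, an HSP40 co-chaperone, rose with 1452 and 1358 on the CD32 2 h arrays, against 574 and 497 on the control arrays (log2 difference 1.39 ± 0.12, adjusted p = 2.64e-05).

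The promoters of ATF3 and XBP1 are shown for the motifs of these stress lists. The core TGATGNAA, bound by C/EBP-ATF dimers, was found in 3 of the 15 risen ATF4 targets with a window, against 5 of 14 uncalled ones and 3.67% of all promoters. The endoplasmic reticulum stress element, CCAAT, any 9 bases, then CCACG, was in 1 of the 6 risen unfolded protein response genes, XBP1, in 3 of 17 uncalled ones and in 0.0806% of all promoters. The windows are ATF3 (chr1:212565207-212565406, plus strand) and XBP1 (chr22:28800570-28800769, minus strand), and their matches start at bases -191 and -52.

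ATF3: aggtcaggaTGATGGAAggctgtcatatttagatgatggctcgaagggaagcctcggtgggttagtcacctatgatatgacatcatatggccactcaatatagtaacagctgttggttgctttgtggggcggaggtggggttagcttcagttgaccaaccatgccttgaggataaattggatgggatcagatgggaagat
XBP1: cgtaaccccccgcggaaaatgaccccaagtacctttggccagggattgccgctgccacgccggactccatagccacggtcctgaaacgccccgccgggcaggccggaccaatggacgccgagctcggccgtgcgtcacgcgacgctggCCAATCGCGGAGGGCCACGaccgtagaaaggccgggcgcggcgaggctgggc

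Redox genes were split. Of the 17 genes of the list of TXNIP, its relatives and the thioredoxin system 4 rose and 2 fell, with a median of -0.073, and 0, 1, 1 and 3 fell without 1 array. Of 27 genes of the NRF2 and oxidative stress list 5 rose and 5 fell. Without 1 array 4, 4, 6 and 4 rose, and 1, 0, 2 and 2 fell. SQSTM1, the autophagy receptor p62, read 1793 and 1700.0 on the CD32 2 h arrays, against 478 and 608 on the control arrays (log2 difference 1.7 ± 0.13, adjusted p = 1.09e-05). HMOX1, haem oxygenase, read 315 and 298 on the CD32 2 h arrays, against 136 and 126 on the control arrays (log2 difference 1.22 ± 0.22, adjusted p = 0.00397). TXNRD1, thioredoxin reductase, read 1542 and 1481 on the CD32 2 h arrays, against 890.0 and 1002 on the control arrays (log2 difference 0.68 ± 0.09, adjusted p = 0.000611). GSTP1, a glutathione transferase, fell with 2994 and 2916 on the CD32 2 h arrays, against 4156 and 3776 on the control arrays (log2 difference -0.42 ± 0.09, adjusted p = 0.0089), with adjusted p of 0.0652 without CD32 2 h array 2 and 0.0605 without control array 1. ABCC1, an exporter of glutathione conjugates, fell with 471 and 477 on the CD32 2 h arrays, against 790.5 and 832 on the control arrays (log2 difference -0.78 ± 0.17, adjusted p = 0.0124), with adjusted p of 0.0774 without CD32 2 h array 1, 0.0661 without CD32 2 h array 2 and 0.0693 without control array 2. CAT, GPX1 and GPX4, which break down peroxides, were the other fallen genes of that list. Of 6 metallothionein genes limma called 0, and 1 had an unadjusted p under 0.05, on the higher side. Quantile normalization gave 1 call, higher.

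Genes of glucose uptake and glycolysis fell in part. Of 26 tested, 8 fell and 2 rose, with a median of -0.24, and 5, 4, 6 and 4 fell without 1 array. Beside HK2 and HK3, SLC2A3, the high-affinity glucose transporter, read 671 and 652 on the CD32 2 h arrays, against 1482 and 1759 on the control arrays (log2 difference -1.29 ± 0.14, adjusted p = 0.000146). SLC2A1, the more general transporter, read 313 and 419.5 on the CD32 2 h arrays, against 853 and 490.4 on the control arrays (log2 difference -0.84 ± 0.25, adjusted p = 0.0448), with adjusted p of 0.269 without CD32 2 h array 1, 0.0652 without CD32 2 h array 2 and 0.29 without control array 1. Enzymes further down were not uniform: PKM, pyruvate kinase, read 7598 and 7765 on the CD32 2 h arrays, against 4512 and 5825 on the control arrays (log2 difference 0.58 ± 0.13, adjusted p = 0.00971), a rise with adjusted p of 0.0635 without CD32 2 h array 1, 0.0677 without CD32 2 h array 2 and 0.0705 without control array 1. Among 25 other genes inducible by hypoxia 8 fell and 2 rose, with a median of -0.07. CITED2, a competitor of hypoxia-inducible factors for their coactivator, read 579 and 561 on the CD32 2 h arrays, against 1076 and 1256 on the control arrays (log2 difference -1.03 ± 0.19, adjusted p = 0.00399). BNIP3L, a mitophagy receptor, read 1291 and 1297 on the CD32 2 h arrays, against 1792 and 1826 on the control arrays (log2 difference -0.48 ± 0.08, adjusted p = 0.00298). EPAS1, the factor HIF-2 alpha, rose with 466 and 461 on the CD32 2 h arrays, against 145 and 189 on the control arrays (log2 difference 1.49 ± 0.2, adjusted p = 0.00065). VEGFA, a growth factor of vessels on the same list, read 943 and 857 on the CD32 2 h arrays, against 784 and 957 on the control arrays (log2 difference 0.05 ± 0.19, adjusted p = 0.916) and was not called.

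Sterol and mitochondrial genes fell in part. Of 26 genes of cholesterol synthesis and uptake 7 fell and 1 rose, with a median of -0.39, and 4, 3, 4 and 7 fell without 1 array. HMGCS1, which makes the precursor of mevalonate, read 270.0 and 231 on the CD32 2 h arrays, against 602 and 592 on the control arrays (log2 difference -1.26 ± 0.21, adjusted p = 0.00235). LSS, which closes the sterol rings, read 1587 and 1768 on the CD32 2 h arrays, against 2589 and 2902 on the control arrays (log2 difference -0.71 ± 0.13, adjusted p = 0.00372). SQLE, squalene epoxidase, read 2881 and 3120.0 on the CD32 2 h arrays, against 3404 and 3114 on the control arrays (log2 difference -0.12 ± 0.08, adjusted p = 0.439) and was not called. In a further list, of 22 genes of lipid efflux, storage and scavenging, 0 rose and 1 fell, with a median of 0.004. That share, 4.55% called, was below the 15.5% of all probe sets. Of 60 oxidative phosphorylation genes 14 fell and 3 rose, with a median of -0.23, and 7, 7, 11 and 9 fell without 1 array. Beside ATP5F1C, NDUFS1, the largest subunit of complex I, read 600.4 and 557 on the CD32 2 h arrays, against 954 and 982 on the control arrays (log2 difference -0.74 ± 0.13, adjusted p = 0.00274), and ATP5F1D, the delta subunit of ATP synthase, read 1228 and 1240.1 on the CD32 2 h arrays, against 1903 and 2215 on the control arrays (log2 difference -0.73 ± 0.1, adjusted p = 0.000641). IDH3G, of the tricarboxylic acid cycle, read 757 and 675 on the CD32 2 h arrays, against 1351 and 1262 on the control arrays (log2 difference -0.87 ± 0.13, adjusted p = 0.00124).

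**Figure D4:**
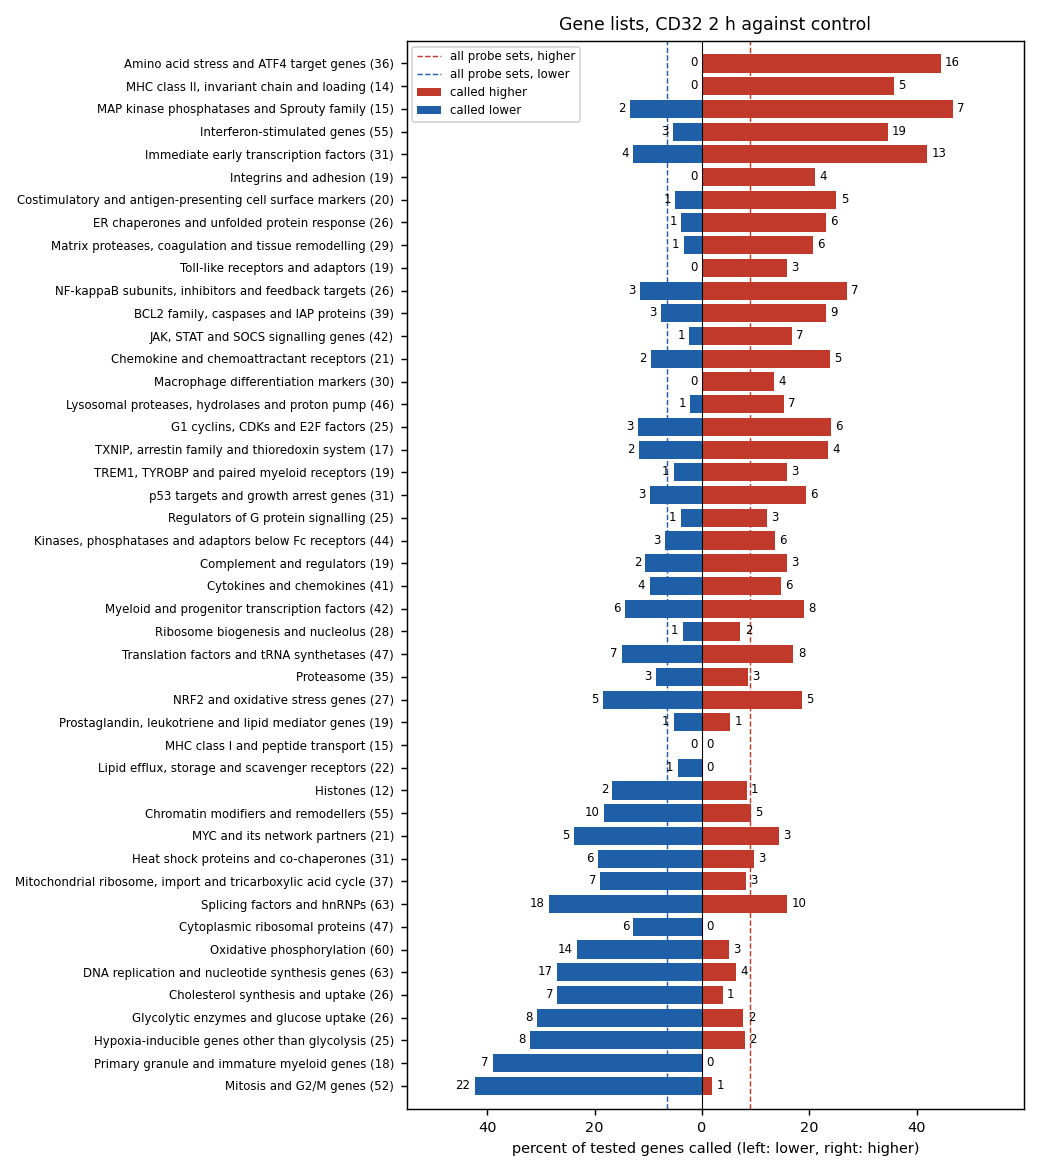
Percent of the tested genes of each list that were called higher (red, to the right) or lower (blue, to the left) in CD32 2 h cells against control, with counts at the bar ends, list sizes in brackets and dashed lines at 8.86% and 6.6% for all probe sets. The ATF4 targets, with 16 of 36 higher, stand at the top and the mitotic genes, with 22 of 52 lower, at the bottom.

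Many genes of mitosis fell, while the arrest gene CDKN1A rose. Of 52 mitosis and G2/M genes tested, 22 fell and 1 rose, with a median of -0.36, and 16, 15, 20 and 16 fell without 1 array. TOP2A, the topoisomerase of dividing cells, read 1385 and 1149.7 on the CD32 2 h arrays, against 2731 and 2963 on the control arrays (log2 difference -1.17 ± 0.1, adjusted p = 2.85e-05). MAD2L1, of the spindle checkpoint, read 1027 and 900.2 on the CD32 2 h arrays, against 2096 and 1937 on the control arrays (log2 difference -1.07 ± 0.19, adjusted p = 0.0031). SPAG5, a spindle protein, read 648 and 649 on the CD32 2 h arrays, against 1348 and 1359.5 on the control arrays (log2 difference -1.06 ± 0.15, adjusted p = 0.000748). ESPL1, the protease separase that parts sister chromatids, read 499.5 and 576 on the CD32 2 h arrays, against 1022 and 1189 on the control arrays (log2 difference -1.04 ± 0.18, adjusted p = 0.00258). CDK1, the kinase that starts mitosis, read 1386 and 1162 on the CD32 2 h arrays, against 2412 and 2538 on the control arrays (log2 difference -0.96 ± 0.16, adjusted p = 0.0021). The sizes were modest, between log2 differences of -1.17 and -0.34 for the 22 genes. STMN1, which destabilizes microtubules, was the 1 member that rose, with 1432 and 1326 on the CD32 2 h arrays, against 798 and 1111 on the control arrays (log2 difference 0.55 ± 0.17, adjusted p = 0.0491) and adjusted p of 0.224 without CD32 2 h array 1, 0.131 without CD32 2 h array 2 and 0.309 without control array 1.

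Promoters of mitotic genes are shown for the cell cycle genes homology region, TTTGAA. That core was in 12 of 20 fallen genes with a window, in 15 of 22 uncalled ones, in 15.4% of all promoters and in 11.1% of those of tested genes. It was thus no more frequent in fallen than in uncalled mitotic genes. The letters CCAAT were in 14 of 20 fallen and 15 of 22 uncalled mitotic genes, against 35.7% of all promoters. The windows shown are ESPL1 (chr12:53268099-53268298, plus strand) and ZWINT (chr10:56361260-56361459, minus strand), and in both the core, in capitals, starts at base -31, read on the reverse strand in ZWINT. ZWINT, of the kinetochore, was chosen after its values were seen and read 1719 and 1789.7 on the CD32 2 h arrays, against 2730.4 and 2440.1 on the control arrays (log2 difference -0.56 ± 0.09, adjusted p = 0.00231).

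ESPL1: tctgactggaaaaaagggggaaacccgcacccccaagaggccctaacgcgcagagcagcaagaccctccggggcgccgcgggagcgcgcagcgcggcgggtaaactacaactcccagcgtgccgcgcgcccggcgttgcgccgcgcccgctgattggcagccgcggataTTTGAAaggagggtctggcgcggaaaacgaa
ZWINT: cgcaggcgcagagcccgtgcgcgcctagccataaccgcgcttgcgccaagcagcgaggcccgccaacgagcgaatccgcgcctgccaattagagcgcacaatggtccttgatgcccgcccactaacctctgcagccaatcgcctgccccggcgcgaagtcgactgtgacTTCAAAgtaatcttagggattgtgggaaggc

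Genes of DNA replication fell in part. Of 63 replication and nucleotide synthesis genes 17 fell and 4 rose, with a median of -0.29, and 7, 6, 11 and 7 fell without 1 array. RRM2, of ribonucleotide reductase, read 4845 and 5247 on the CD32 2 h arrays, against 8713 and 9035 on the control arrays (log2 difference -0.82 ± 0.1, adjusted p = 0.000357). DCK, which salvages deoxynucleosides, read 424 and 578 on the CD32 2 h arrays, against 1087 and 1073 on the control arrays (log2 difference -1.12 ± 0.19, adjusted p = 0.0028). PCNA, the sliding clamp, read 3067 and 2485 on the CD32 2 h arrays, against 2436 and 3526 on the control arrays (log2 difference -0.09 ± 0.16, adjusted p = 0.798) and was not called. G1 genes were split, with 6 of 25 higher and 3 lower, and 2, 4, 4 and 5 higher without 1 array. CCND3, a D-type cyclin, read 2964 and 2553 on the CD32 2 h arrays, against 794 and 898 on the control arrays (log2 difference 1.7 ± 0.12, adjusted p = 6.18e-06). E2F6, a repressor of the E2F family, read 421 and 467 on the CD32 2 h arrays, against 162 and 224 on the control arrays (log2 difference 1.22 ± 0.18, adjusted p = 0.000997). RB1, the retinoblastoma protein, fell with 711 and 726 on the CD32 2 h arrays, against 1407 and 1199 on the control arrays (log2 difference -0.85 ± 0.15, adjusted p = 0.00281). CDKN1B, the inhibitor p27 related to p21, fell with 1274 and 1220.3 on the CD32 2 h arrays, against 2173 and 1966 on the control arrays (log2 difference -0.73 ± 0.12, adjusted p = 0.00244). The p53 list, to which CDKN1A belongs, had 6 of 31 higher and 3 lower, with 3, 3, 5 and 4 higher without 1 array. MDM2, a standard target of p53, read 45.5 and 40.7 on the CD32 2 h arrays, against 43.1 and 14.5 on the control arrays (adjusted p = 0.875) and did not pass the test. PMAIP1 rose with 511 and 587 on the CD32 2 h arrays, against 250.1 and 226 on the control arrays (log2 difference 1.2 ± 0.16, adjusted p = 0.000582), and CCNG1 fell with 2795 and 2816 on the CD32 2 h arrays, against 4189 and 4577 on the control arrays (log2 difference -0.64 ± 0.08, adjusted p = 0.000367).

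MYC fell, and the list of its partners and targets was split. Of 21 tested, 5 fell and 3 rose, and without 1 array 1, 2, 4 and 3 fell and 1, 1, 2 and 2 rose. ODC1, a textbook MYC target that starts polyamine synthesis, rose instead, with 4646 and 4192 on the CD32 2 h arrays, against 752 and 1055 on the control arrays (log2 difference 2.31 ± 0.15, adjusted p = 4.34e-06). Of 28 genes of ribosome biogenesis 2 rose and 1 fell, and of 47 cytoplasmic ribosomal proteins 6 fell and 0 rose. Their shares called were 10.7% and 12.8%, both below the 15.5% of all probe sets. The count of ribosomal proteins was 2, 2, 2 and 1 without 1 array and 3 after quantile normalization. Among translation factors 8 of 47 rose and 7 fell, and 5, 8, 7 and 7 rose and 2, 2, 5 and 1 fell without 1 array. EIF5, which triggers GTP hydrolysis at the start codon, read 1917 and 1792 on the CD32 2 h arrays, against 598 and 544 on the control arrays (log2 difference 1.7 ± 0.11, adjusted p = 4.8e-06). TARS1, threonyl-tRNA synthetase, read 2152 and 2171 on the CD32 2 h arrays, against 1062 and 1066 on the control arrays (log2 difference 1.02 ± 0.09, adjusted p = 4.36e-05). FARSA, a subunit of phenylalanyl-tRNA synthetase, fell with 289 and 415 on the CD32 2 h arrays, against 719.6 and 799 on the control arrays (log2 difference -1.13 ± 0.2, adjusted p = 0.00317).

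Splicing genes moved in both directions. Of 63 tested, 18 fell and 10 rose, with a median of -0.17, and 12, 10, 16 and 10 fell without 1 array. Beside SFPQ, SF1, which reads the branch point, read 1556 and 1708 on the CD32 2 h arrays, against 632 and 649 on the control arrays (log2 difference 1.35 ± 0.1, adjusted p = 1.21e-05). HNRNPAB, an RNA-binding protein, read 1741 and 1812 on the CD32 2 h arrays, against 780.0 and 784 on the control arrays (log2 difference 1.18 ± 0.1, adjusted p = 2.64e-05). The SR proteins SRSF6 and SRSF1 rose by log2 differences of 0.94 and 0.88. The kinases of SR proteins CLK1 and CLK3 fell. CLK1 read 194 and 152 on the CD32 2 h arrays, against 501 and 475 on the control arrays (log2 difference -1.51 ± 0.28, adjusted p = 0.00414), and CLK3 read 367 and 407 on the CD32 2 h arrays, against 1134 and 1154 on the control arrays (log2 difference -1.57 ± 0.19, adjusted p = 0.000273). SF3B3, of the U2 particle, read 492 and 535 on the CD32 2 h arrays, against 1102 and 1032 on the control arrays (log2 difference -1.06 ± 0.14, adjusted p = 0.000507). Of 55 chromatin genes 10 fell and 5 rose, but without 1 array 3, 2, 5 and 2 fell and 1, 2, 2 and 3 rose. DNMT1, the maintenance DNA methyltransferase, read 995 and 1190.2 on the CD32 2 h arrays, against 2049.7 and 1962 on the control arrays (log2 difference -0.88 ± 0.11, adjusted p = 0.000299).

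Genes of immature myeloid cells fell in part. Of 18 primary granule and immature myeloid genes tested, 7 fell and 0 rose, with a median of -0.26, and 6, 6, 6 and 7 fell without 1 array. SOX4, a progenitor factor, read 510.2 and 380.5 on the CD32 2 h arrays, against 1799 and 1516 on the control arrays (log2 difference -1.91 ± 0.18, adjusted p = 5.53e-05). MEIS1, a homeobox factor of stem cells, read 226 and 266 on the CD32 2 h arrays, against 876 and 786 on the control arrays (log2 difference -1.76 ± 0.25, adjusted p = 0.000982). GFI1, a repressor of granulocyte precursors, read 288 and 345 on the CD32 2 h arrays, against 743 and 1181 on the control arrays (log2 difference -1.57 ± 0.25, adjusted p = 0.00181). MYB, which sustains progenitors, read 2634 and 2549 on the CD32 2 h arrays, against 5437 and 5102 on the control arrays (log2 difference -1.02 ± 0.12, adjusted p = 0.0002). AZU1, a primary granule protein, read 2048 and 1972 on the CD32 2 h arrays, against 3304 and 4192 on the control arrays (log2 difference -0.89 ± 0.15, adjusted p = 0.00238). In each of the 5 genes both CD32 2 h arrays were below both control arrays. MPO, the hallmark enzyme of these granules, read 30.7 and 10 on the CD32 2 h arrays, against 36.4 and 50.3 on the control arrays, near the floor in both groups. Of the 42 myeloid and progenitor factors 8 rose and 6 fell, with a median of 0.018. SOX4, GFI1, MYB and IRF8 were among those that fell. RUNX3 rose with 1136 and 1078 on the CD32 2 h arrays, against 382 and 412 on the control arrays (log2 difference 1.48 ± 0.11, adjusted p = 8.23e-06) and its partner CBFB with 4180.3 and 4351 on the CD32 2 h arrays, against 1776 and 1641 on the control arrays (log2 difference 1.32 ± 0.08, adjusted p = 4.34e-06). SPI1, the factor PU.1, read 313 and 349.9 on the CD32 2 h arrays, against 189 and 357 on the control arrays (log2 difference 0.35 ± 0.31, adjusted p = 0.545) and was not called.

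Lysosomal genes were called about as often as all probe sets, and more genes of the BCL2, caspase and IAP families rose than fell. Of 46 lysosomal genes 7 rose and 1 fell, a share of 17.4% called, near the 15.5% of all probe sets. Their median log2 difference was 0.064. The proton pump subunits ATP6V0E1, ATP6V0B and ATP6V1B2, which acidify the phagosome, rose by log2 differences of 1.0, 0.94 and 0.91. Of 39 genes of the BCL2, caspase and IAP families 9 rose and 3 fell, a share of 30.8% called, and fewer rose in each fit without 1 array. Members of these families act for and against cell death. The IAP gene BIRC2 rose by a log2 difference of 0.91, and the anti-apoptotic BCL2A1 fell, by -0.91. TNFRSF10B, a death receptor for TRAIL, read 1399 and 1209.5 on the CD32 2 h arrays, against 524 and 424 on the control arrays (log2 difference 1.47 ± 0.13, adjusted p = 3.39e-05). CASP8, the protease it activates, read 1122 and 1001 on the CD32 2 h arrays, against 559 and 476 on the control arrays (log2 difference 1.04 ± 0.13, adjusted p = 0.000403).

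The next comparison asked where CD32 differed from CD64 at the same time of 2 h. It sets the cross-linked groups against each other, with limma in the same fit. Both share the control arrays, against which 15.9% of probe sets were called for CD64 2 h and 20% for CD32 6 h. Of 7708 probe sets 1256 were called (16.3%), 727 higher (9.43%) and 529 lower (6.86%) in CD32 2 h cells. The counts were 740 and 652 without CD32 2 h array 1 and array 2, and 728 and 803 without CD64 2 h array 1 and array 2. The median log2 difference of all probe sets was 0.106 as deposited and 0.002 after quantile normalization, after which 596 probe sets were called higher and 547 lower. Of the 1256 probe sets called as deposited, 557 were also called in CD32 2 h cells against control. Another 379 were called against control only in CD64 2 h cells, and 320 in neither group.

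CXCL8 and CXCL2, both neutrophil chemokines, were the lowest in CD32 2 h cells relative to CD64 2 h cells. CXCL8 read 247 and 262 in CD32 2 h cells, against 2347 and 2456 in CD64 2 h cells (log2 difference -3.24 ± 0.14, adjusted p = 2.14e-06). CXCL2 read 52.1 and 65.8 in CD32 2 h cells, against 437 and 355 in CD64 2 h cells (log2 difference -2.75 ± 0.4, adjusted p = 0.00121). CX3CR1 was the highest the other way, with 642 and 545 in CD32 2 h cells, against 89.4 and 120.5 in CD64 2 h cells (log2 difference 2.51 ± 0.25, adjusted p = 0.000128). TNFAIP6 read 351 and 413 in CD32 2 h cells, against 79.8 and 62.0 in CD64 2 h cells (log2 difference 2.44 ± 0.34, adjusted p = 0.000946). MYC was lower, with 411 and 516 in CD32 2 h cells, against 1158 and 1347 in CD64 2 h cells (log2 difference -1.44 ± 0.14, adjusted p = 0.000136). TXNIP was higher, with 3708 and 3555 in CD32 2 h cells, against 1039 and 1059 in CD64 2 h cells (log2 difference 1.79 ± 0.09, adjusted p = 5.45e-06).

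Interferon-stimulated genes were higher after CD32 than after CD64 cross-linking at 2 h in 30 of 55 tested and lower in 4, with a median difference of 0.64. After quantile normalization 27 were higher and 3 lower, and 1, 1, 0 and 2 were lower without CD32 2 h array 1 and 2 and CD64 2 h array 1 and 2. Against control, 0 of the 55 rose and 10 fell in CD64 2 h cells, with a median log2 difference of -0.336. OAS2 read 346 and 376 in CD32 2 h cells, against 74.3 and 103 in CD64 2 h cells (log2 difference 2.04 ± 0.25, adjusted p = 0.000453). PLSCR1 read 1647 and 1734 in CD32 2 h cells, against 404 and 450.1 in CD64 2 h cells (log2 difference 1.99 ± 0.11, adjusted p = 6.49e-06). STAT3 read 1582 and 1782 in CD32 2 h cells, against 594 and 562 in CD64 2 h cells (log2 difference 1.54 ± 0.11, adjusted p = 3.27e-05). CD74 read 2608 and 2716 in CD32 2 h cells, against 799 and 888 in CD64 2 h cells (log2 difference 1.66 ± 0.12, adjusted p = 3.27e-05). Of the 26 NF-kappaB genes 10 were higher and 1 lower, and the number higher was 6, 6, 8 and 7 without CD32 2 h array 1 and 2 and CD64 2 h array 1 and 2. ICAM1, an adhesion molecule, read 1514 and 1486 in CD32 2 h cells, against 596 and 583 in CD64 2 h cells (log2 difference 1.35 ± 0.11, adjusted p = 4.49e-05). NFKB1 read 615 and 701 in CD32 2 h cells, against 394 and 393 in CD64 2 h cells (log2 difference 0.74 ± 0.13, adjusted p = 0.00348).

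ATF4 targets were higher in 20 of 36 and lower in 1 relative to CD64 2 h, with a median of 0.56, and the number higher was 16, 13, 12 and 18 without 1 array in the same order. TRIB3 read 3259 and 3225 in CD32 2 h cells, against 1008 and 1268 in CD64 2 h cells (log2 difference 1.52 ± 0.11, adjusted p = 3.27e-05). ATF3 read 511 and 321 in CD32 2 h cells, against 141 and 146 in CD64 2 h cells (log2 difference 1.5 ± 0.27, adjusted p = 0.00373). Mitotic genes were lower in 27 of 52 and higher in 0, with a median of -0.5. TOP2A read 1385 and 1149.7 in CD32 2 h cells, against 2574 and 2644 in CD64 2 h cells (log2 difference -1.05 ± 0.1, adjusted p = 0.000119). Oxidative phosphorylation genes were lower in 28 of 60 and higher in 0, with a median of -0.4. Their lower count was 19, 13, 17 and 20 without 1 array and 20 after quantile normalization. NDUFS1 read 600.4 and 557 in CD32 2 h cells, against 976 and 878 in CD64 2 h cells (log2 difference -0.68 ± 0.13, adjusted p = 0.00446). HSP90AA1 read 2934 and 3069.7 in CD32 2 h cells, against 5970.1 and 5633 in CD64 2 h cells (log2 difference -0.95 ± 0.09, adjusted p = 8.26e-05).

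Set against CD32 cross-linking for 6 h, 344 probe sets were called (4.46%), 187 higher (2.43%) and 157 lower (2.04%) at 2 h. That count was 61 and 77 without CD32 2 h array 1 and array 2, and 118 and 142 without CD32 6 h array 1 and array 2. Of the calls 54.4% were higher at 2 h, against 43.8% after cyclic loess normalization and 36.6% with only these groups in the fit. Some sterol and early response genes were lower at 2 h. Of 26 cholesterol genes 9 were lower and 0 higher, with a median of -0.41, and 5, 6, 7 and 6 were lower without CD32 2 h array 1 and 2 and CD32 6 h array 1 and 2. HMGCS1 read 270.0 and 231 at 2 h, against 1347 and 1350.0 at 6 h (log2 difference -2.43 ± 0.21, adjusted p = 0.000238). SQLE read 2881 and 3120.0 at 2 h, against 6109.5 and 5967 at 6 h (log2 difference -1.01 ± 0.08, adjusted p = 0.000219). Of 31 early response factors 8 were lower and 1 higher at 2 h, and 5, 5, 6 and 6 were lower without 1 array.

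EGR1 read 153 and 136 at 2 h, against 1038 and 878 at 6 h (log2 difference -2.72 ± 0.31, adjusted p = 0.00122). FOSB read 93.8 and 77.2 at 2 h, against 631 and 628 at 6 h (log2 difference -2.89 ± 0.35, adjusted p = 0.00165). Both genes were thus higher 6 h after CD32 cross-linking than at 2 h. IER3 read 523 and 498 at 2 h, against 1519.8 and 1667 at 6 h (log2 difference -1.64 ± 0.16, adjusted p = 0.000468). CXCL8 read 247 and 262 at 2 h, against 1013 and 952 at 6 h (log2 difference -1.95 ± 0.14, adjusted p = 0.000158). TNFAIP3 read 1183 and 1249 at 2 h, against 2324 and 2114 at 6 h (log2 difference -0.87 ± 0.11, adjusted p = 0.00225). STAT3 was higher at 2 h, with 1582 and 1782, against 819 and 911 at 6 h (log2 difference 0.96 ± 0.11, adjusted p = 0.00141). CBFB was higher as well, with 4180.3 and 4351 at 2 h, against 2845 and 2762 at 6 h (log2 difference 0.61 ± 0.08, adjusted p = 0.00335). HSP90AA1 was higher at 2 h, with 2934 and 3069.7 at 2 h, against 1787 and 1972 at 6 h (log2 difference 0.68 ± 0.09, adjusted p = 0.00233).

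**Figure D5:**
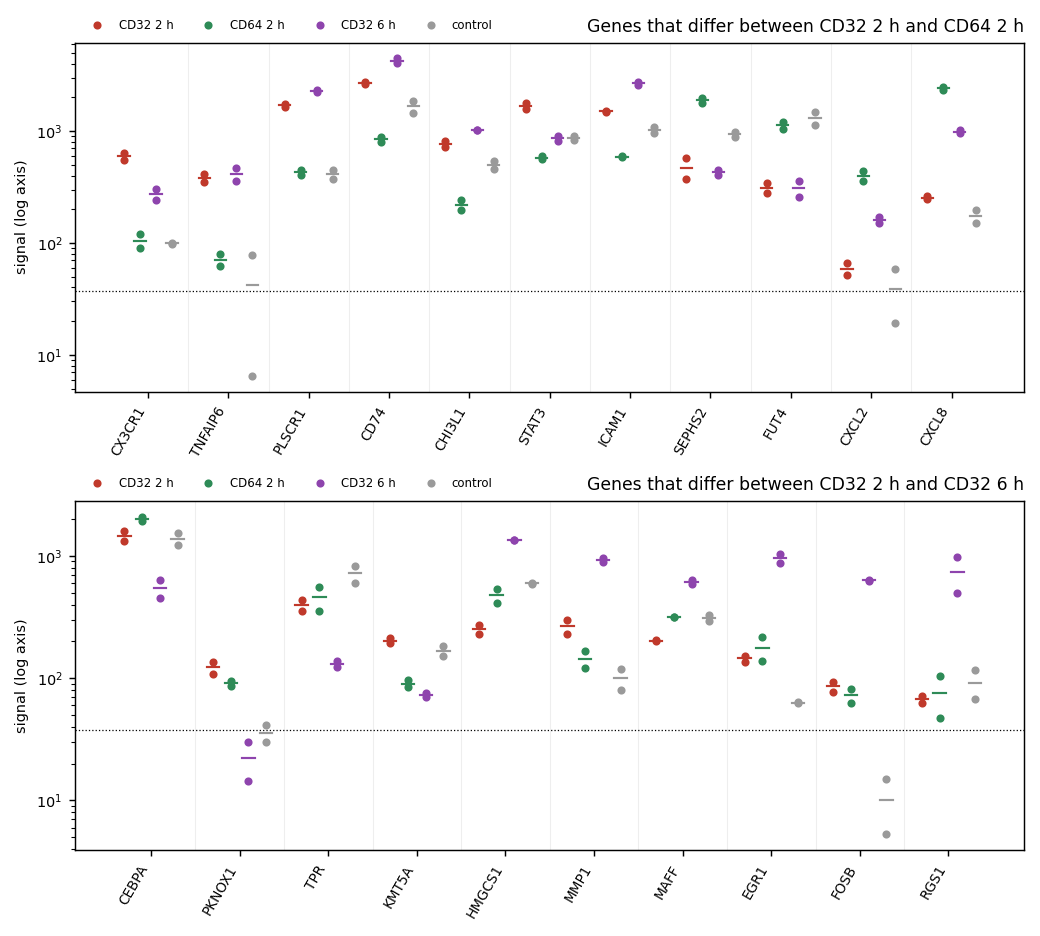
Signal on each array (log axis) for genes that differ between CD32 2 h and CD64 2 h (top) or between CD32 2 h and CD32 6 h (bottom), with CD32 2 h, CD64 2 h, CD32 6 h and control from left to right for each gene, points for arrays, bars for means and the floor dotted. CXCL8 and CXCL2 are highest in CD64 2 h cells, and EGR1, FOSB and HMGCS1 in CD32 6 h cells.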

How the data were processed

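RNA of U937 cells was measured on 10 one-colour oligonucleotide arrays in 5 groups of 2, grouped by the titles and descriptions in the labels. The deposited signal intensity values, 1 per probe set and array, had been scaled by the authors: the mean without the lowest and highest 2% was 499.9 on each array, as computed here. The software behind them is not given in the sources used here. Gene symbols came from the platform annotation supplied with the table: of 8746 probe sets outside the 47 control ones, 7840 had 1 symbol, 388 several and 518 none. Among them, 13 probe sets of chromosome Y genes and XIST were left out of naming and lists, but were not removed before testing.

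Values were raised to the 25th percentile (37.5), log2 was taken, and probe sets above it on at least 2 arrays (7708) were tested in limma (version 3.58.1, under R 4.3.3). One model held a term per group over all 10 arrays, with 5 residual degrees of freedom and moderated variances that followed a trend on mean signal. Tests were two-sided, with Benjamini-Hochberg adjustment over all of them. On simulated data of this comparison 89% of 100 probe sets changed by a log2 of 2 and 49% of 100 changed by a log2 of 1 were called. Arrays carry no read depth, and the 2 arrays per group limit the precision.

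Named genes were, among called genes without overlap between the groups, the 20 highest and 20 lowest, up to 4 higher and 4 lower from each of 49 gene lists, and the 10 highest and lowest of each difference, and in addition, called or not, the first 3 of each list and the Fc gamma receptor genes. A gene was read through its probe set of highest mean signal. The members and lists were chosen with earlier results of these data known. Alternatives varied the floor, filter, normalization, variance model, arrays in the fit and a replicate block. The numbers shared by groups marked no clear pairing of the arrays. Correlations of deviations from the group means between equally numbered arrays lay between -0.141 and 0.285. They were 0.204, 0.247 and 0.285 among control, CD64 2 h and CD64 6 h, and -0.141 for control with CD32 2 h.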

Additional observations from a re-analysis of the deposited data

Results flagged for a closer look

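Named genes were looked at again where CD32 2 h and a second cross-linked group were called in opposite directions against the same control arrays and the difference between the cross-linked groups was called itself, by limma with adjustment over all probe sets. CD64 2 h gave 9 such genes and CD32 6 h gave 2. Values follow as log2 differences, CD32 2 h minus the other cross-linked group.

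STAT3, a transcription factor of cytokine signalling, differed by 1.54, with 1582 and 1782 in CD32 2 h cells, 594 and 562 in CD64 2 h cells and 908 and 839 in control cells. CD74, the class II invariant chain, differed by 1.66, with 2608 and 2716 in CD32 2 h cells, 799 and 888 in CD64 2 h cells and 1456 and 1864 in control cells. CHI3L1, a chitinase-like protein of macrophages, differed by 1.82, with 816 and 724 in CD32 2 h cells, 242 and 196 in CD64 2 h cells and 536 and 456 in control cells. CYBB, of the phagocyte oxidase, differed by 1.53, with 1035 and 1054 in CD32 2 h cells, 392.2 and 333 in CD64 2 h cells and 596 and 526 in control cells. Of the groups printed, CD32 2 h was the highest and CD64 2 h the lowest in each gene, as the rule of choice requires. ICAM1 differed by 1.35, PKM by 1.25 and SC5D, of sterol synthesis, by 1.31, each higher in CD32 2 h cells. SEPHS2, which makes selenophosphate, differed by -2.02 and CCNH, a cyclin of the CDK-activating kinase, by -0.96, each lower in CD32 2 h cells. The CD32 2 h calls of CHI3L1, PKM, SC5D and CCNH against control were each kept in 1 of the 4 fits without 1 array, and that of ICAM1 in 3.

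Against CD32 6 h, HMGCS1 differed by -2.43, with 270.0 and 231 at 2 h, 1347 and 1350.0 at 6 h and 602 and 592 in control cells. MAFF, a small MAF factor, differed by -1.6, with 203 and 199.9 at 2 h, 586 and 634 at 6 h and 291 and 329 in control cells, and its fall at 2 h was kept in 1 of 4 fits without 1 array.

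Outside the measured genes, 18 probe sets for added bacterial and phage transcripts had a mean log2 signal of 11.25 in CD32 2 h cells and 10.63 in control cells, a difference of 0.618. The ratio of the 3′ to the 5′ probe set of actin was 1.56 in CD32 2 h cells and 1.3 in control cells. That of GAPDH was 0.878 in CD32 2 h cells and 0.869 in control cells. In CD64 2 h cells the added transcripts read 10.869, the actin ratio was 1.81 and the GAPDH ratio 0.951. In CD32 6 h cells these values were 12.359, 1.99 and 1.17. Their part in the results was not tested.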

How the results depend on the processing

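No called named gene changed its direction under any alternative run. For CD32 2 h against control, 153 of 280 called named genes were called in all 4 fits without 1 array, 127 lost the call in at least 1 and 26 in all 4. Probe sets called ranged from 639 to 909 without 1 array, against 1192 with all. For CD32 2 h against CD64 2 h they ranged from 652 to 803, against 1256, and for CD32 2 h against CD32 6 h from 61 to 142, against 344. Without the variance trend the counts were 810, 830 and 54 for the 3 comparisons. Causes were not tested beyond fewer arrays. With the replicate block the count for CD32 2 h against control was 1220, and 96.6% of the calls were shared. The shared numbers marked no clear pairing of the arrays, so the block is not read as a stricter test. Quantile normalization gave 1245 calls and cyclic loess 1252. No filter gave 1014 and only these 4 arrays gave 942. Signals at the floor limit the size of a change: CDKN1A in control cells and HK3 in CD32 2 h cells have only a bound. Probe sets of 1 gene can disagree, as for CD44 and RPL31, where 1 was called and another was not.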

Other observations

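Another 4 gene lists were put together after the values had been seen, so their counts describe and are not tested as lists. Of 18 genes of the TRAIL and TNF receptor families 6 rose and 0 fell at 2 h after CD32 cross-linking, and 4, 3, 5 and 5 rose without CD32 2 h array 1, CD32 2 h array 2, control array 1 and control array 2. The ligand TNFSF10 and its receptor TNFRSF10B rose in all of these fits, the receptor with 1399 and 1209.5 on the CD32 2 h arrays, against 524 and 424 on the control arrays (log2 difference 1.47 ± 0.13, adjusted p = 3.39e-05). NGFR, a neurotrophin receptor of the family, read 126 and 132 on the CD32 2 h arrays, against 14.2 and 10.4 on the control arrays (at least 3.44-fold higher, adjusted p = 0.00877), with adjusted p of 0.0546 without CD32 2 h array 2. Of 46 DNA repair genes 1 rose and 9 fell, with a median of -0.28, and 4, 2, 2 and 6 fell without 1 array in that order. FANCE, of the Fanconi anaemia core complex, read 376 and 366 on the CD32 2 h arrays, against 1023 and 910.0 on the control arrays (log2 difference -1.38 ± 0.14, adjusted p = 7.27e-05). RAD54L, of homologous recombination, read 222 and 239 on the CD32 2 h arrays, against 511 and 838 on the control arrays (log2 difference -1.51 ± 0.25, adjusted p = 0.00247). TDG, a thymine glycosylase, was the 1 that rose, with 737 and 689 on the CD32 2 h arrays, against 393 and 299.5 on the control arrays (log2 difference 1.05 ± 0.16, adjusted p = 0.0015).

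Of 14 circadian clock genes 3 rose and 1 fell, and 0, 2, 4 and 1 rose without 1 array in the same order. CLOCK read 196 and 211 on the CD32 2 h arrays, against 69.7 and 66.4 on the control arrays (log2 difference 1.58 ± 0.34, adjusted p = 0.00915), with adjusted p of 0.0513 and 0.0635 without CD32 2 h array 1 and array 2. BHLHE40, a repressor of that loop, fell, with 877 and 803 on the CD32 2 h arrays, against 1265 and 1321 on the control arrays (log2 difference -0.62 ± 0.1, adjusted p = 0.00213). Of 11 polyamine genes 3 rose and 1 fell, and 1, 1, 2 and 1 rose without 1 array. Beside ODC1, which rose in all of these fits, DHPS, which makes hypusine from spermidine, fell in all of them, with 342 and 310.3 on the CD32 2 h arrays, against 807 and 702 on the control arrays (log2 difference -1.21 ± 0.17, adjusted p = 0.000691).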
